A study of Mus musculus with 30 samples.

Results

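Proteasome genes were read from a table of heart RNA by gene symbol: every row whose symbol starts with Psma, Psmb, Psmc, Psmd, Psme, Psmf or Psmg was taken. The rule gave 49 of the 13575 rows, with 48 distinct symbols, since Psmb9 stands on 2 rows. By role they are 7 alpha and 7 constitutive beta subunits of the 20S core, 4 rows of inducible beta subunits, 6 ATPases and 11 other subunits of the 19S cap, 7 assembly chaperones, and 6 rows of activators and an inhibitor. Psmc3ip, a meiotic recombination factor, matches by its letters and is no proteasome subunit. Psma8 and Psmb11, which encode testis and thymus subunits in mouse, were not analysed here. All 49 rows passed the filter for testing, a mean across the libraries of 0.5 FPKM or more (fragments per kilobase of transcript, scaled to library depth).

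The study asks what the REV-ERB nuclear receptors, repressors of the circadian clock, do in heart. CM-RevDKO hearts, a cardiomyocyte double knockout of Rev-erba and Rev-erbb, were set against RevFloxed control hearts, with 3 RNA libraries each. All mice were 2 months old and their hearts were taken at ZT10 (10 hours after lights on) with the atria trimmed. The labels of the study's ChIP samples give the cross as aMHC-Cre, positive against negative, on floxed alleles of both receptors, so that both groups carry the floxed alleles, and that promoter drives Cre in cardiomyocytes. Whether the controls sequenced for RNA lack Cre is not stated. If they do, Cre and receptor loss cannot be told apart in this comparison. The knockout leaves the receptors in endothelial cells, fibroblasts and leukocytes, whose RNA is in these libraries too, and in such bulk samples fewer cells of a type and less RNA per cell cannot be told apart.

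The proteasome is the protease that destroys proteins tagged with ubiquitin. Its barrel, the 20S core, has outer rings of alpha subunits and inner rings of beta subunits, of which beta 1, beta 2 and beta 5 cut peptide bonds. The 19S cap binds ubiquitin chains, removes them and unfolds the substrate with a ring of ATPases. Interferon induces a set of replacement catalytic subunits that form the immunoproteasome, which is abundant in immune cells. In mammals the transcription factor NRF1, encoded by Nfe2l1 and unrelated to the nuclear respiratory factor of that name, raises the transcription of proteasome genes when the protease is short. In the heart, where cells are long-lived and under mechanical load, the proteasome turns over damaged and sarcomeric proteins.

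The libraries summed to 678722 to 712158 FPKM, and sequencing depth is unknown. Nr1d1, which encodes REV-ERBα, stood at 47.4 to 55.6 FPKM in CM-RevDKO libraries and at 15.01 to 23.9 FPKM in control libraries, higher in the knockout (log2 fold change 1.28, limma adjusted p = 0.0124), which goes against the label. Nr1d2, which encodes REV-ERBβ, stood at 26.6 to 28.8 FPKM in CM-RevDKO and 30.6 to 40.3 FPKM in control libraries (adjusted p = 0.175). These gene values take in exons that the deletion may leave in place, and so check neither allele. Arntl, a direct target of the repressors, averaged 12.8 ± 0.229 FPKM in CM-RevDKO and 0.174 ± 0.109 FPKM in control libraries (SD, n = 3 each). It was higher in CM-RevDKO (log2 fold change 3.56, limma adjusted p = 1.72e-05), the direction that goes with the label. The 8 defining cardiomyocyte markers were abundant in all 6 libraries, and 4 of them had a log2 fold change above 0. They summed to 29366.8 to 32907.5 FPKM in CM-RevDKO and 29382.1 to 31549.8 FPKM in control libraries. The smallest p belonged to Pln, lower in CM-RevDKO at 1380 to 1721 against 2174 to 2265 FPKM (limma adjusted p = 0.0598). The next was Tnnt2, higher at 5969 to 6535 against 4769 to 5095 FPKM (limma adjusted p = 0.0744). Myh6 stood at 2983 to 3815 FPKM in CM-RevDKO and 4285 to 4549 FPKM in control libraries. Some libraries stood apart. The mitochondrial transcript mt-Atp8 reached 18989 and 19303 FPKM in CM-RevDKO replicates 1 and 2, while the other 4 libraries lay between 8032 and 9769 FPKM. Together 6 atrial markers summed to 685, 176 and 212 FPKM in the CM-RevDKO libraries and to 66.6 to 126 FPKM in the control libraries, the highest being CM-RevDKO replicate 1. Bmp10, one of these markers, was listed at 0 in all libraries but CM-RevDKO replicate 1. The median deviation of 6 adipocyte markers from the control mean, on the log2(FPKM + 1) scale, was 1.71, 1.35 and -0.06 in CM-RevDKO replicates 1, 2 and 3. The part of these differences in the results below was not tested. Values given without a library leave out everything particular to that library, and so do not single out any of these differences.

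No proteasome gene differed between the groups beyond the test, whereas Nfe2l1, the gene of their transcription factor NRF1, fell to 0.477 times its control level. All 49 members were fitted with limma in 1 model across 13256 genes, and none had an adjusted p under 0.05. Over all genes tested, 332, or 2.50%, passed, 167 of them higher (1.26%) and 165 lower (1.24%) in CM-RevDKO hearts. At an unadjusted p under 0.05 there were 11 members, 9 higher and 2 lower, which is 22.4% of the 49. The same unadjusted threshold was met by 16.6% of all genes, 9.41% higher and 7.23% lower. The smallest adjusted p among members was 0.0653, for Psmg3 and Psme4. The count of 11 became 5 without CM-RevDKO replicate 1, when 13.5% of all genes met that threshold, and 18 (14 higher, 4 lower) without CM-RevDKO replicate 3, when 18.0% did. It was 7 without control replicate 2 and 7 without control replicate 3 (13.9% and 14.0% of all genes). It was also 5 (9.27% of all genes) with replicate 3 as the only CM-RevDKO library, an alternative chosen after seeing the data. The split of 9 higher and 2 lower became 5 and 4 after quantile normalization, and 2 and 4 after scaling without the mitochondrially encoded genes.

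The differences were small and mostly bounded. The members had a median log2 fold change of 0.14, beside 0.02 over all genes tested and 0.07 over the 2485 genes that averaged 20 FPKM or more. Of the 49, 37 were above 0 (75.5%), beside 53.7% of all genes; the 37 became 32 under either of the other scalings. The members' median was 0.06 after quantile normalization and 0.07 when scaled without the mitochondrially encoded genes, beside -0.0051 and -0.038 over all genes. On the log2(FPKM + 1) scale, the 95% intervals of 47 members lay within a 2-fold change in either direction, and those of 35 within 1.5-fold. The exceptions to the 2-fold bound on this scale were the rows of Psmb9. The scale understates changes of low genes, so these are not bounds on the change in FPKM of the low members. With 0.1 added in place of 1, the log2 fold change of Psmg3 was 0.69 rather than 0.56. A missed threshold does not show that a gene was unchanged, since every value inside its interval is compatible with the 3 libraries a group. The intervals of the 11 members with an unadjusted p under 0.05 left out 0, although none passed after adjustment over all genes.

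**Figure D1:**
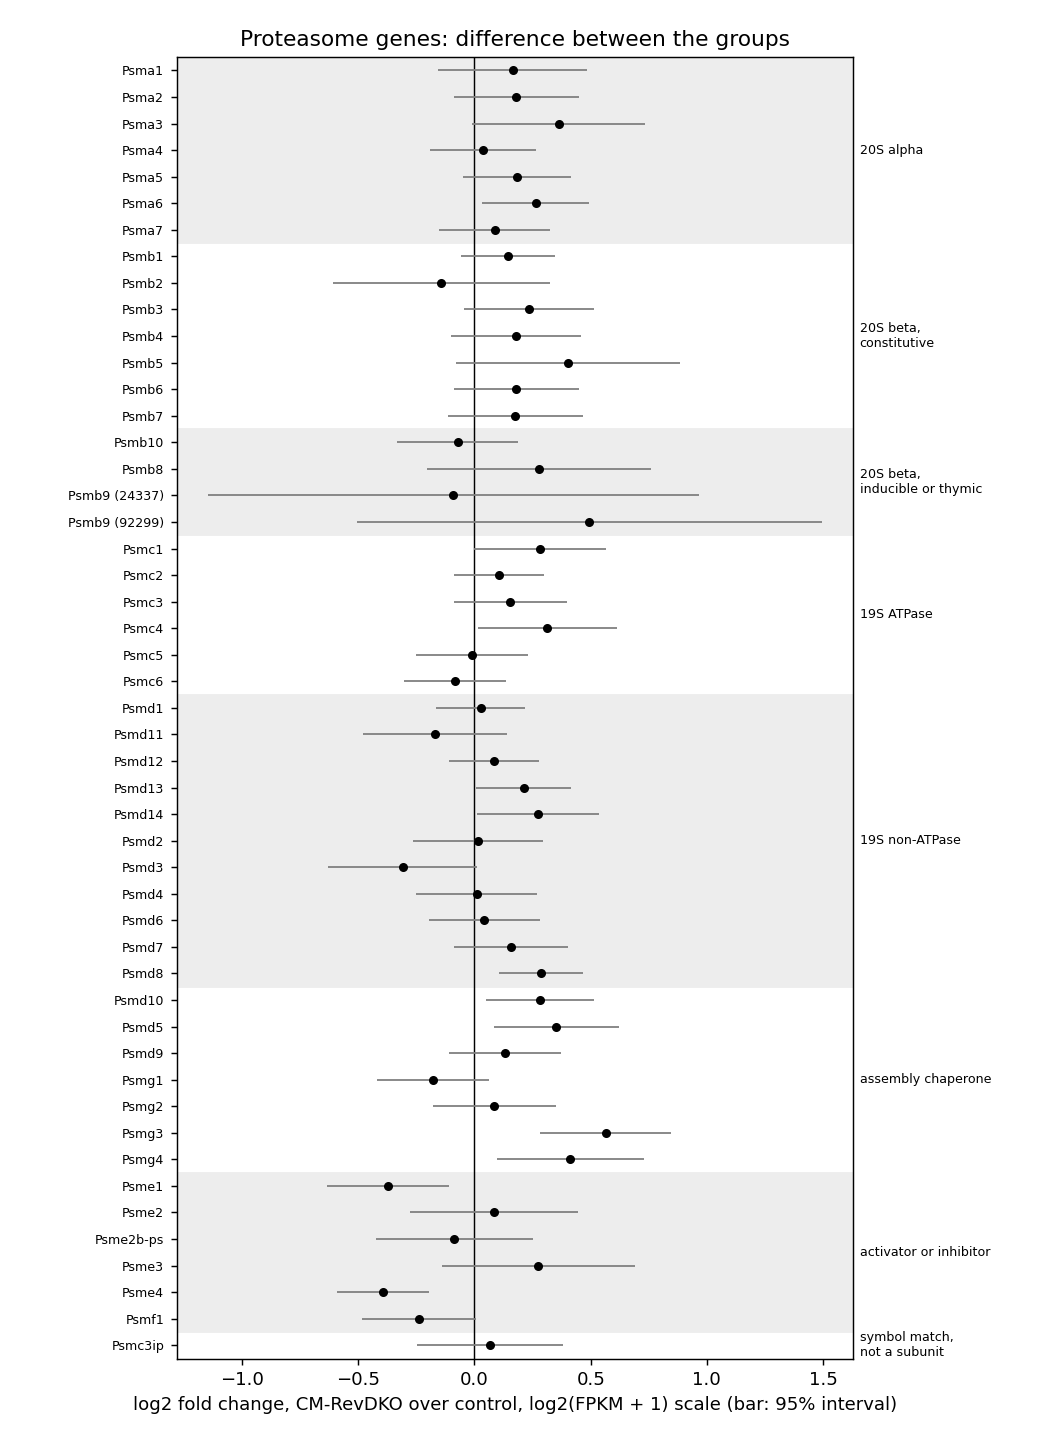
Log2 fold change of each of the 49 proteasome rows, CM-RevDKO over control, on the log2(FPKM + 1) scale, with 95% intervals, ordered by role. The constitutive core subunits sit mostly right of 0 by up to 0.40, Psme1, Psme4 and Psmf1 sit left of 0, and Psmg3 has the highest value, 0.56.

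Nfe2l1 (ENSMUSG00000038615, chromosome 11, 96817414 to 96829968, mm10) was the single gene past the test among 10 genes of NRF1 and NRF2 control of proteasome genes. It stood at 38.4, 50.3 and 49.9 FPKM in CM-RevDKO libraries, against 99.6, 87.7 and 103 FPKM in control libraries. The groups lay far apart, with the highest CM-RevDKO library under the lowest control. The mean was 0.477 times that of the controls, a log2 fold change of -1.06 (SE 0.13, 95% interval -1.36 to -0.76, limma adjusted p = 0.00800). The call ended without control replicate 1 (log2 -1.04, adjusted p = 0.0535) and with replicate 3 as the only CM-RevDKO library (-0.94, adjusted p = 0.0985), and held under the 13 other alternatives run. Nfe2l2, which encodes NRF2, the related activator of oxidative stress genes, stood at 16.2, 16.1 and 18.0 FPKM in CM-RevDKO libraries and at 19.7, 21.5 and 19.8 FPKM in control libraries (adjusted p = 0.208). The genes of the enzymes that ready NRF1 for the nucleus did not pass: Ngly1, a deglycosylase, averaged 9.31 ± 0.802 FPKM in CM-RevDKO and 8.85 ± 1.06 FPKM in control libraries (SD, n = 3 each). The protease gene Ddi2 averaged 5.60 FPKM in CM-RevDKO and 6.68 FPKM in control libraries (adjusted p = 0.335). Of the 10 genes, 5 had a log2 fold change above 0.

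Since NRF1 and NRF2 bind antioxidant response elements, promoters were searched for the core of that element, TGACNNNGC. Promoters, 250 bases before to 50 bases after the start, came from RefSeq (GRCm38.p6, which is mm10) and were held for 40 of the 47 subunit and regulator symbols. Both strands were read, and where a gene has several starts a match in any was counted. The core was found in 6 of the 40 (15%), beside 14.0% of 27025 genes in the same table. The members with a match were Psmb5, Psmb6, Psmc6, Psmd9, Psmd12 and Psme4. Their fold changes had no common sign. The CCAAT box was found in 13 (32.5%, beside 41.1% of all genes). The motif AGGTCA, which REV-ERB and ROR read in longer form, was found in 9 (22.5%, beside 18.1%). The D-box TTANGTAA of E4BP4 was found in none of the 40 and in 2.72% of all genes. The reverse complement of AGGTCA begins with TGAC and could overlap the first motif, but no member held both. These windows are shown so that the matched bases can be read in their surroundings; capitals mark the core, read on either strand, and each line is 5′ to 3′ on the gene's own strand.
Psmb5, chr14:54618014-54618062, minus strand: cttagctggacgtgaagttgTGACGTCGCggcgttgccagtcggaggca
Psmb6, chr11:70525328-70525376, plus strand: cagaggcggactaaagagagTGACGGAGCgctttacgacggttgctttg
Psmd9, chr5:123228139-123228187, plus strand: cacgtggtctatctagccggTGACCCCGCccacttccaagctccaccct
Psmc6, chr14:45329577-45329625, plus strand: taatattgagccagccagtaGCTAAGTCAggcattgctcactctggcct
Psmd12, chr11:107479278-107479309, plus strand: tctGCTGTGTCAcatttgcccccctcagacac

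Counted from the start, the first base of the match was at -47 in Psmb5, -9 in Psmb6, -31 in Psmd9 and -7 in Psme4, and at -227 in Psmc6 and -247 in Psmd12. The whole promoters of Psme4 and Psmg3 are given because these were the members with the smallest p, on opposite sides of 0. Psme4 holds the core and Psmg3 none of the 4 motifs.
Psme4, chr11:30771525-30771824, plus strand: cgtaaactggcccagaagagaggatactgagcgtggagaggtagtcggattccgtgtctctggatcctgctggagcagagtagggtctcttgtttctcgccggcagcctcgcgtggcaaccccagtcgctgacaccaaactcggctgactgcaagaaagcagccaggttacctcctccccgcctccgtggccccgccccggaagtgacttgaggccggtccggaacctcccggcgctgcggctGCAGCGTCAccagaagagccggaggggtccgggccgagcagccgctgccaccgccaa
Psmg3, chr5:139826845-139827144, minus strand: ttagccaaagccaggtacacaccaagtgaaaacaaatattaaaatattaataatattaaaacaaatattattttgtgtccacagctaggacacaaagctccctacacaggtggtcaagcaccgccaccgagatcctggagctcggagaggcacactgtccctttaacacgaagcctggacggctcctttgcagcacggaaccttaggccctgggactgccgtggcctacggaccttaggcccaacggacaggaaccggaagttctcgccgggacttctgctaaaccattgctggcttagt

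**Figure D2:**
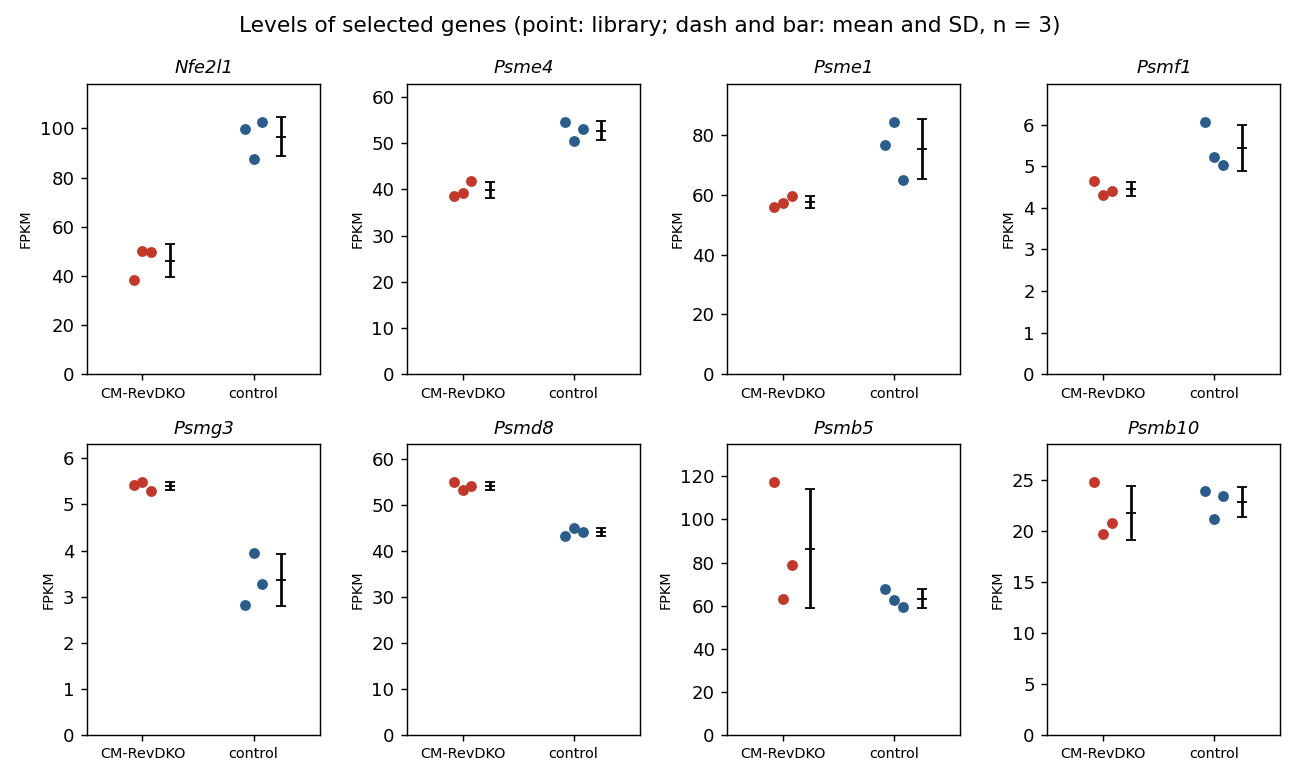
FPKM of Nfe2l1 and 7 proteasome genes in each library (points), with mean and SD of 3 libraries per group, CM-RevDKO left of control; each axis starts at 0. Nfe2l1 lies at 38.4 to 50.3 FPKM in CM-RevDKO and 87.7 to 103 FPKM in control libraries, Psme4, Psme1 and Psmf1 are lower and Psmg3 and Psmd8 higher without overlap, and Psmb5 is high in 1 CM-RevDKO library.

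The constitutive 20S core genes were abundant, and none passed the test. The 7 alpha genes, whose subunits form the outer rings and the gate, had group means of 26.0 to 101 FPKM in CM-RevDKO and 22.8 to 83.6 FPKM in control hearts. All 7 had a log2 fold change above 0, with a median of 0.18. Psma4, the lowest at 0.04, stood below 0 under both other scalings (-0.021 and -0.032) and without control replicate 2 (-0.047). Psma3 had the highest value of the class: 50.4, 34.7 and 35.9 FPKM in CM-RevDKO against 29.4, 28.3 and 34.7 FPKM in control libraries. CM-RevDKO replicate 1 stood apart from the other 5, and the lowest CM-RevDKO value was just under the highest control. The log2 fold change was 0.36 (SE 0.16, adjusted p = 0.312), and 0.19 without that library. In Psma6 the groups did not overlap, with 108, 106 and 88.9 FPKM in CM-RevDKO and 84.0, 82.8 and 84.0 FPKM in control libraries (log2 0.26, adjusted p = 0.239).

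The 7 constitutive beta genes had the highest levels of any class, with means of 48.2 to 151 FPKM in CM-RevDKO and 53.6 to 132 FPKM in control hearts. Psmb7, which encodes the trypsin-like subunit beta 2, and Psmb6, which encodes the caspase-like beta 1, were the most abundant proteasome transcripts. Psmb7 stood at 178, 142 and 131 FPKM in CM-RevDKO and 135, 124 and 137 FPKM in control libraries, and Psmb6 at 161, 134 and 121 against 120, 120 and 124 FPKM. In both, CM-RevDKO replicate 1 was the highest library and replicate 3 lay at the level of the controls. Their log2 fold changes were 0.18 each (SE 0.13 and 0.11, adjusted p = 0.532 and 0.485). With replicate 3 as the only CM-RevDKO library they were -0.0071 and -0.0016.

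Psmb5 encodes beta 5, the chymotrypsin-like subunit and the main target of bortezomib. It stood at 117, 63.3 and 79.0 FPKM in CM-RevDKO libraries and at 67.8, 62.8 and 59.2 FPKM in control libraries. Replicate 1 was again the high library, and replicate 2 lay within the control range. The log2 fold change was 0.40 (95% interval -0.08 to 0.88, adjusted p = 0.385), and 0.16 without replicate 1. Psmb2, a structural subunit, was the single constitutive beta gene below 0, at 40.2, 44.6 and 59.9 FPKM in CM-RevDKO and 47.8, 68.4 and 44.5 FPKM in control libraries. The groups overlapped widely, and its log2 fold change of -0.14 (adjusted p = 0.777) was 0.044 without control replicate 2 and 0.18 with replicate 3 as the only CM-RevDKO library.

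**Figure D3:**
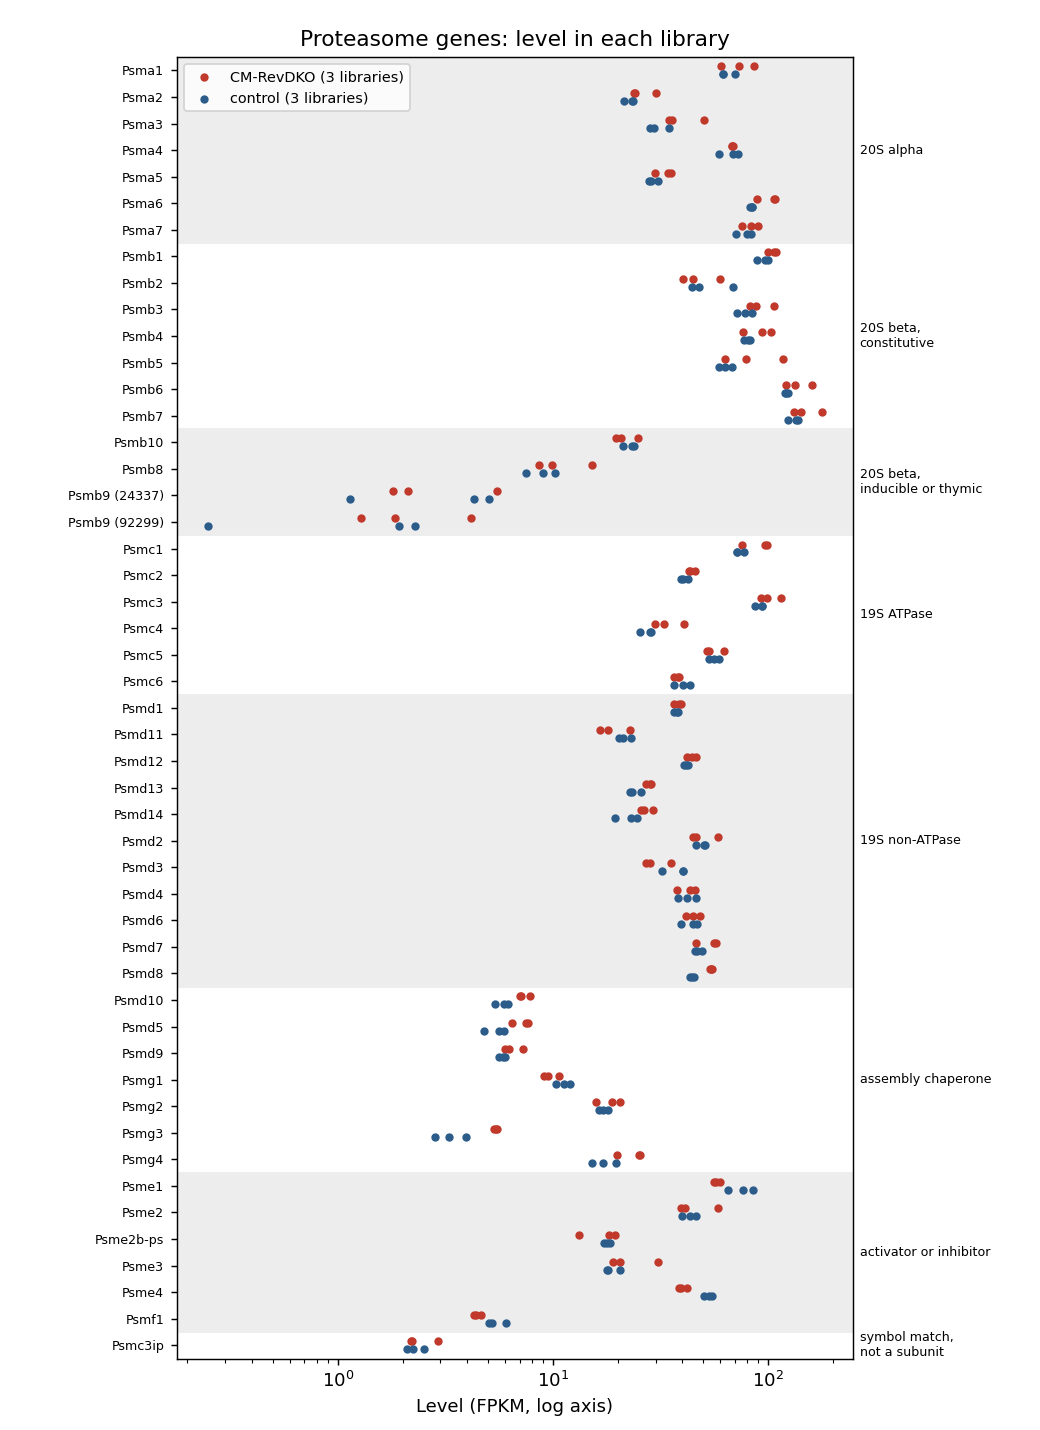
FPKM of each proteasome row in each of the 3 CM-RevDKO and 3 control libraries on a log axis, ordered by role. Constitutive core genes lie between about 20 and 180 FPKM, Psmf1 and most assembly chaperones lie lower, and the Psmb9 rows scatter most widely. Psmg4 and Psmg2, at 15.2 to 25.3 FPKM, lie around the lower end of the core range.

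The inducible catalytic genes were less abundant than their constitutive counterparts, and none passed the test. Psmb8, which encodes the replacement for beta 5, stood at 15.2, 9.85 and 8.57 FPKM in CM-RevDKO and at 10.2, 8.96 and 7.47 FPKM in control libraries. Replicate 1 alone lay above the control range (log2 0.28, SE 0.21, adjusted p = 0.552), and with replicate 3 as the only CM-RevDKO library the value was -0.037. Psmb10, the replacement for beta 2, stood at 24.7, 19.7 and 20.7 FPKM in CM-RevDKO and at 23.9, 21.2 and 23.4 FPKM in control libraries (log2 -0.07, 95% interval -0.33 to 0.19, adjusted p = 0.803). Its ranges crossed, since replicate 1 lay above every control and replicates 2 and 3 below every control. Psmb9, the replacement for beta 1, is split over identifiers ENSMUSG00000024337 and ENSMUSG00000092299, the first row being the higher in 4 libraries and the second in 2, and reads may have been divided between them. The first stood at 1.80, 5.47 and 2.13 FPKM in CM-RevDKO and 5.04, 1.14 and 4.30 FPKM in control libraries. The second stood at 4.17, 1.28 and 1.85 FPKM in CM-RevDKO and 0.248, 2.28 and 1.93 FPKM in control libraries. Neither row separates the groups. Their sum, which adds values over possibly different lengths, was steadier, at 5.97, 6.75 and 3.98 FPKM in CM-RevDKO and 5.29, 3.42 and 6.24 FPKM in control libraries (log2 0.14, SE 0.23, adjusted p = 0.816).

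Each inducible gene was also set against its constitutive counterpart in the same library. With 3 libraries against 3, the exact test cannot go below 0.1. The ratio of Psmb8 to Psmb5 was 0.130, 0.156 and 0.108 in CM-RevDKO and 0.151, 0.143 and 0.126 in control libraries (exact two-sided permutation p = 0.7). That of summed Psmb9 to Psmb6 was 0.0372, 0.0505 and 0.0329 in CM-RevDKO and 0.0439, 0.0286 and 0.0504 in control libraries (exact permutation p = 1.0). The ratios of both pairs overlapped between the groups. That of Psmb10 to Psmb7 was 0.139, 0.138 and 0.158 in CM-RevDKO and 0.177, 0.171 and 0.170 in control libraries, with every CM-RevDKO value below every control value. The mean log2 difference was -0.25, with an exact permutation p of 0.1, the smallest that 3 against 3 allows, and 0.3 adjusted over the 3 ratios.

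**Figure D4:**
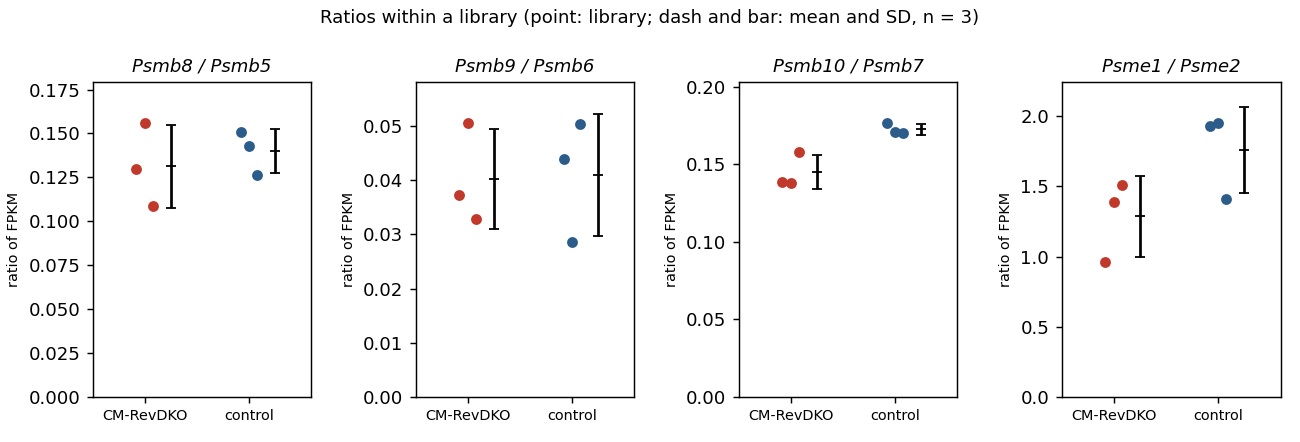
Ratios of FPKM within a library, for the 3 inducible subunits over their constitutive counterparts and for Psme1 over Psme2, with points for libraries and mean and SD (n = 3), CM-RevDKO left of control. The ratio of Psmb10 to Psmb7 is the 1 pair of the first 3 in which the groups do not overlap, at 0.138 to 0.158 in CM-RevDKO and 0.170 to 0.177 in control libraries.

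Leukocyte markers and antigen processing genes were read beside the immunoproteasome genes. Of 16 leukocyte markers 13 were tested and none passed. Their summed level was 166 to 277 FPKM in CM-RevDKO and 180 to 194 FPKM in control libraries, and CM-RevDKO replicate 1 held the 277. That library was the highest in Psmb8, and in the constitutive Psmb5, Psmb6 and Psmb7 as well. No value of the 13 was at 0, and the other 3 were not analysed here. Of 14 genes of MHC class I antigen processing none passed either, and their median log2 fold change was -0.03. Their summed level was 850, 580 and 602 FPKM in CM-RevDKO replicates 1, 2 and 3, and 621 to 669 FPKM in control libraries. The smallest adjusted p in that list was 0.109, for the folding chaperone gene Canx, at 54.6 ± 1.87 FPKM in CM-RevDKO and 69.9 ± 5.46 FPKM in control libraries (SD, n = 3 each). The next was 0.433, for the chaperone gene Calr, at 83.9 FPKM in CM-RevDKO and 101 FPKM in control libraries.

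None of the genes of the 19S cap passed the test. Of the 6 ATPase genes 4 were above 0, and the class median was 0.13 (log2). Psmc4 was the highest, at 40.7, 29.8 and 32.9 FPKM in CM-RevDKO and 28.4, 25.4 and 28.2 FPKM in control libraries. The groups did not overlap, although CM-RevDKO replicate 2 lay just above the highest control (log2 0.31, SE 0.13, adjusted p = 0.282). Psmc6 was the lowest, with overlapping values of 38.1, 36.4 and 38.6 FPKM in CM-RevDKO and 43.5, 36.7 and 40.03 FPKM in control libraries (log2 -0.08, adjusted p = 0.717).

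The 11 other cap genes had a median of 0.04 (log2 fold change), with 9 above 0. Psmd8, a lid subunit, had the narrowest interval of any member: 55.0, 53.4 and 54.1 FPKM in CM-RevDKO against 43.4, 45.0 and 44.3 FPKM in control libraries. Each CM-RevDKO value was above each control value, and both groups spanned under 2 FPKM. Its log2 fold change of 0.29 (SE 0.08, 95% interval 0.11 to 0.47) had an adjusted p of 0.119, and ranged over 0.27 to 0.30 with each library left out. Psmd13, a lid subunit, and Psmd14, the deubiquitinase of the lid, were also higher without overlap, at means of 27.9 and 27.04 FPKM in CM-RevDKO and 24.0 and 22.3 FPKM in control hearts (adjusted p = 0.292 and 0.286). Psmd3, also a lid subunit, was the lowest, at 27.1, 28.1 and 35.2 FPKM in CM-RevDKO and 32.2, 40.02 and 40.4 FPKM in control libraries. CM-RevDKO replicate 3 lay inside the control range (log2 -0.31, SE 0.14, adjusted p = 0.318). The ubiquitin receptor gene Psmd4 was level, at 42.3 ± 4.16 FPKM in CM-RevDKO and 42.0 ± 3.94 FPKM in control hearts (SD, n = 3 each).

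The assembly chaperones, which help build the core and the cap and leave before they work, included the member highest in fold change on the log2(FPKM + 1) scale. With 0.1 added in place of 1, the second Psmb9 row was higher, at 0.92 (log2) beside 0.69 for Psmg3. Psmg3, a chaperone of the alpha ring, stood at 5.43, 5.48 and 5.30 FPKM in CM-RevDKO and at 2.83, 3.95 and 3.28 FPKM in control libraries. The groups did not overlap, and the CM-RevDKO values lay within 0.2 FPKM of each other. The log2 fold change was 0.56 (SE 0.12, 95% interval 0.28 to 0.85) and missed the threshold (adjusted p = 0.0653). Its adjusted p was 0.0703 to 0.183 with each library left out. Psmg4, its partner, stood at 25.3, 25.2 and 19.8 FPKM in CM-RevDKO and at 19.6, 17.2 and 15.2 FPKM in control libraries (log2 0.41, adjusted p = 0.184). Replicate 3 lay just above the highest control.

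Of the chaperones of the ATPase ring, Psmd5 averaged 7.22 and 5.44 FPKM and Psmd10 7.30 and 5.84 FPKM in CM-RevDKO and control hearts, without overlap (adjusted p = 0.183 and 0.215). Psmd9, also of this group, averaged 6.50 FPKM in CM-RevDKO and 5.83 FPKM in control hearts, with overlap. Psmg1, of the other pair of alpha ring chaperones, was the single one of the 7 below 0, at 10.7, 9.51 and 9.11 FPKM in CM-RevDKO and 12.0, 10.4 and 11.2 FPKM in control libraries (log2 -0.18, adjusted p = 0.441). Its partner Psmg2 averaged 18.3 FPKM in CM-RevDKO and 17.1 FPKM in control hearts. By class, 4 of the 7 chaperones were higher without overlap. The same held for 12 of the 49 members (24.5%) and for 12.6% of all genes tested. Without overlap in either direction there were 15 members (30.6%), beside 23.1% of all genes.

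Of the 6 rows of activators and an inhibitor, 4 had a log2 fold change below 0 and none passed the test; 8 of the 12 members below 0 belong to other classes. Psme4 encodes PA200, an activator that caps the core without ubiquitin and is known for histone breakdown. It stood at 38.6, 39.2 and 41.9 FPKM in CM-RevDKO and at 54.7, 50.4 and 53.0 FPKM in control libraries. The gap between the groups was wider than the spread inside either. The log2 fold change was -0.39 (SE 0.08, 95% interval -0.59 to -0.20, adjusted p = 0.0653). It passed the threshold after scaling without the mitochondrially encoded genes (-0.46, adjusted p = 0.0488) and when genes with a mean under 5 FPKM were left out (adjusted p = 0.0459), and it did not pass under the other alternatives. Psme4 overlaps Erlec1, as Psme1 does Emc9, Psmf1 Tmem74b and Psmd10 Atg4a; no source used here says if the counting read strand, so their values are uncertain to that extent.

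Psme1 and Psme2 encode PA28 alpha and beta, partners in an activator ring that interferon induces. Psme1 stood at 55.9, 57.3 and 59.8 FPKM in CM-RevDKO and at 76.7, 84.6 and 64.9 FPKM in control libraries, lower without overlap (log2 -0.37, SE 0.11, adjusted p = 0.153). Psme2 stood at 58.3, 41.2 and 39.6 FPKM in CM-RevDKO and at 39.8, 43.4 and 46.1 FPKM in control libraries, with replicate 1 high and the others inside or just below the control range (log2 0.08, adjusted p = 0.842, and -0.090 without replicate 1). The ratio of Psme1 to Psme2, looked at after the values were seen and not tested, was 0.960, 1.39 and 1.51 in CM-RevDKO and 1.93, 1.95 and 1.41 in control libraries. Psme2b-ps, a near copy of Psme2 that can share its reads, averaged 16.99 ± 3.33 FPKM in CM-RevDKO and 17.9 ± 0.545 FPKM in control libraries (SD, n = 3 each).

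Psme3, which encodes the nuclear activator PA28 gamma, stood at 30.8, 18.98 and 20.4 FPKM in CM-RevDKO and at 17.9, 20.5 and 17.9 FPKM in control libraries. Replicate 1 alone was outside the control range (log2 0.28, adjusted p = 0.493, and 0.068 without it). Psmf1, which encodes PI31, named as an inhibitor of the core in vitro, stood at 4.66, 4.31 and 4.41 FPKM in CM-RevDKO and at 6.08, 5.23 and 5.04 FPKM in control libraries. It was lower without overlap (log2 -0.24, SE 0.11, adjusted p = 0.314). Psme1, Psme4 and Psmf1 were the 3 members lower without overlap, 6.12% of the 49, beside 10.5% of all genes tested. Psmc3ip averaged 2.45 and 2.28 FPKM in CM-RevDKO and control hearts (log2 0.07, adjusted p = 0.851).

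**Figure D5:**
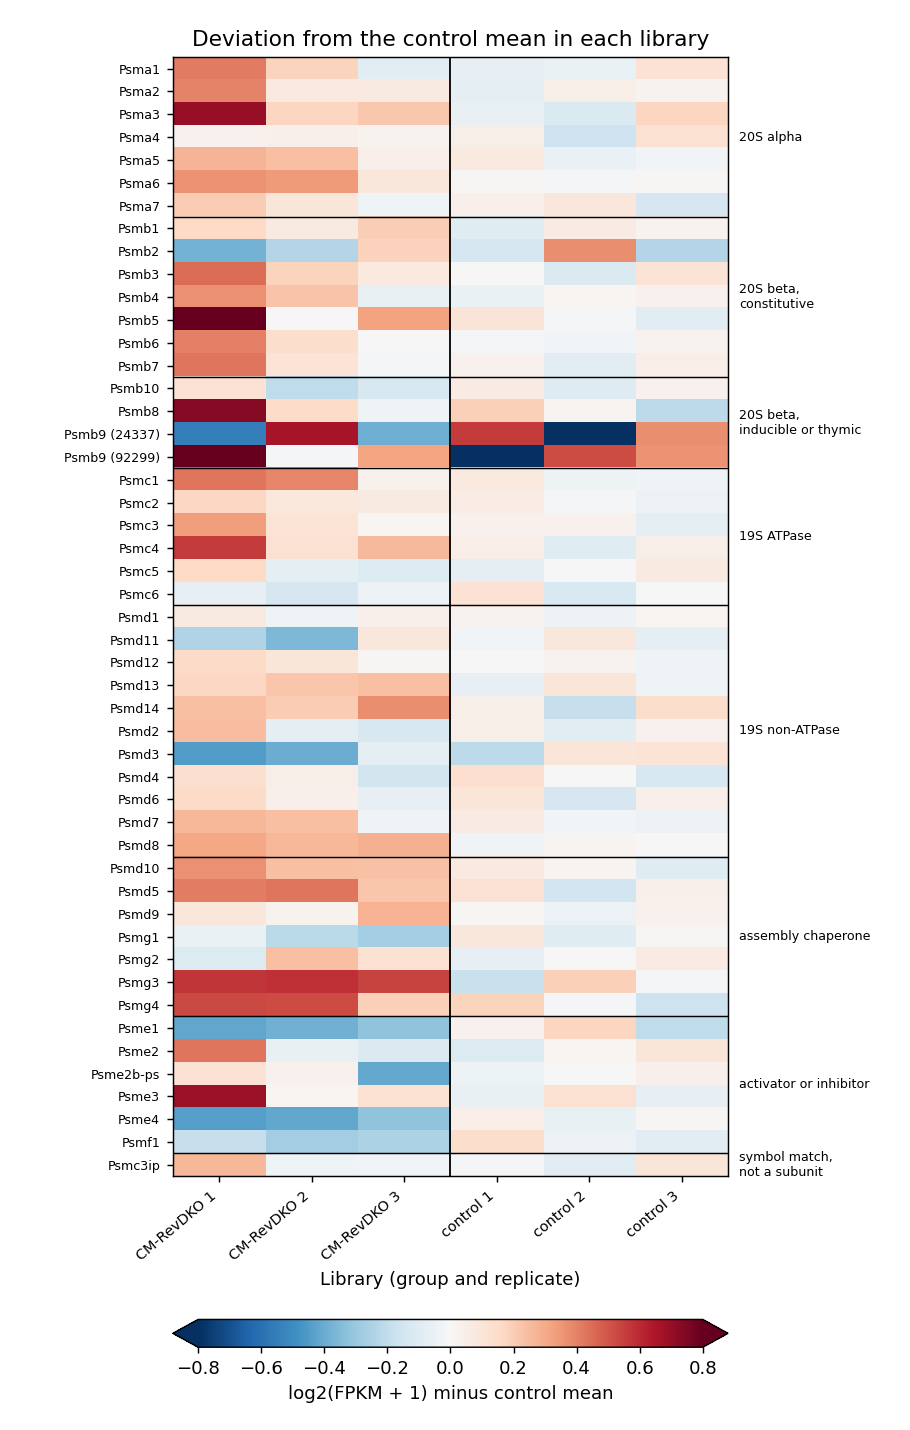
Deviation of each proteasome row in each library from the control mean on the log2(FPKM + 1) scale (red above, blue below; the color scale ends at 0.8 in either direction). CM-RevDKO replicate 1 is the reddest column in the core classes, with class medians of 0.36 to 0.42, while Psme1, Psme4 and Psmf1 are blue in all 3 CM-RevDKO libraries.

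CM-RevDKO replicate 1 stood highest in most members. This library held the highest of the 6 values for 31 of the 49 members (63.3%), beside 29.2% of all genes tested. The median deviation of the alpha genes from their control mean was 0.36, 0.17 and 0.04 in CM-RevDKO replicates 1, 2 and 3, and that of the constitutive beta genes 0.40, 0.11 and 0.08. In control libraries these medians lay between -0.05 and 0.03. Over all 49 members the medians were 0.25, 0.08 and 0.03, beside 0.06, -0.01 and 0.01 over all genes tested. The assembly chaperones varied less between libraries, with 0.37, 0.24 and 0.22. Without replicate 1 the median log2 fold change of the 49 was 0.07 and 33 were above 0, and with replicate 3 as the only CM-RevDKO library it was 0.03 with 27 above 0. Replicate 1 also had the highest summed level of atrial, adipocyte, leukocyte and endothelial markers, the last at 166 to 197 FPKM in CM-RevDKO and 147 to 171 FPKM in control libraries. The median deviation of 6 fibroblast markers was 0.57 in replicate 1, -0.18 and -0.21 in CM-RevDKO replicates 2 and 3, and -0.14 to 0.26 in control libraries, whose replicate 1 held their highest sum.

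Proteasome partners outside these symbols were read as a list of their own. Of 27 listed, 26 were tested and none passed, with a median log2 fold change of 0.07. The smallest p belonged to AI314180, which encodes the proteasome adaptor ECM29, at 29.5, 27.2 and 31.2 FPKM in CM-RevDKO and 38.6, 41.7 and 33.5 FPKM in control libraries. It was lower without overlap (log2 -0.36, SE 0.11, adjusted p = 0.161).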

How the data were processed

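RNA of 6 heart libraries, 3 CM-RevDKO and 3 control, was analysed; the 24 DNA libraries of the series were not used here. Per the submitters' processing notes, reads went through HISAT2 and StringTie on mm10; versions are not given there. The deposited values were read as FPKM, as StringTie reports; the file header does not name the unit, and TPM, which differs by 1 factor per library, is possible. Depth could not be recovered: between any 2 libraries (15 pairs), at most 4 low genes, of 466 to 876, shared a ratio to 4 decimals. No counting interval is therefore given.

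Values were taken as log2(FPKM + 1), which understates changes of low genes. A limma 3.58.1 model (R 4.3.3) was fitted to the 13256 genes averaging 0.5 FPKM or more (group as the only term, eBayes with trend), two-sided, adjusted by Benjamini-Hochberg over all of them, threshold 0.05. Each adjusted p comes from this fit unless another setting is named; ratios used an exact permutation test. The fit was tested on simulated data. Replicates are not stated to be separate animals, so p-values measure the spread between these samples. Named members were the 3 catalytic beta genes and their replacements, Psme1 to Psme4 and Psmf1. The extreme fold changes of each role class and the 2 most and 2 least abundant members were named too. From other lists the naming rule took genes past the test or else the 2 with the smallest p. The genes it took from the leukocyte, atrial, adipocyte, endothelial and fibroblast marker lists are not named. Those lists are given mostly as sums or medians. Further genes, Myh6 and Bmp10 among them, were named after their values were seen. Members and lists were chosen with earlier results of these data known. Alternatives were another pseudocount, other filters, other scalings, a replicate block, no trend, and each library left out. Rows that can share reads (both of Psmb9; Psme2 with Psme2b-ps) were also summed. One gene of the partner list that the naming rule takes is not reported here.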

Additional observations from a re-analysis of the deposited data

How the results depend on the processing

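The count of proteasome genes past the test was 0 in the reported fit, 1 (Psme4) with a mean of at least 5 FPKM or with scaling without the mitochondrially encoded genes, and 0 under every other alternative run, each library left out included (0 to 0). Their median log2 fold change, reported as 0.14, was 0.06 with quantile normalization, 0.07 scaled without the mitochondrially encoded genes, and 0.07 to 0.18 with each library left out. The count of all genes past the test was 332, 120 to 322 with each library left out, and 21 with replicate 3 as the only CM-RevDKO library, where 1 sample is assumed to vary like the controls. That setting, the summed rows and the single Psmb9 rows were chosen after seeing the data. Same-numbered libraries showed correlations of -0.04, -0.06 and 0.09 in their deviations, beside -0.09 to 0.11 for libraries of unlike number. With 3 libraries a group, such correlations cannot show whether the numbers pair the libraries. With a replicate block 115 genes and 0 proteasome genes passed. Nfe2l1 lost its call in 2 of 15 alternatives. The log2 differences of the ratios ran from -0.23 to 0.028 (Psmb8 to Psmb5), -0.25 to 0.16 (Psmb9 to Psmb6) and -0.32 to -0.22 (Psmb10 to Psmb7) with each library left out; the second was 0.88 with row ENSMUSG00000092299 alone. Psma4 was -0.021 with quantile normalization and -0.032 scaled without mitochondrially encoded genes. Row ENSMUSG00000024337 of Psmb9 (reported as -0.09) was -0.56 to 0.19 with each library left out and 0.14 with its rows summed; Psma4 ran over -0.047 to 0.096, Psmb2 over -0.31 to 0.044, Psme2 over -0.090 to 0.18 and Psmc3ip over -0.031 to 0.12. With replicate 3 as the only CM-RevDKO library, Psmb2 was 0.18, Psmb6 -0.0016, Psmb7 -0.0071, Psmb8 -0.037, Psme2 -0.12 and Psmc3ip -0.025. The cause of these reversals was not tested. With 3 libraries a group and unknown depth, the values inside a member's interval could not be told apart.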
